A study of Mus musculus with 8 samples.

Results

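Chemokines are small secreted proteins that steer leukocytes, and the genes for their ligands and receptors were followed here in the regenerating liver of mice with a deleted or an intact Survivin gene. Ligands fall into the CC, CXC, CX3C and XC families by the spacing of conserved cysteines, and most act through G protein-coupled receptors of the matching name. Atypical receptors (Ackr genes) bind chemokines without the usual G protein signal and take them out of circulation. In the liver, hepatocytes, endothelial cells, stellate cells and resident macrophages make chemokines, and the receptors sit mainly on incoming leukocytes. Members were all genes with a mouse symbol of these families (Ccl, Cxcl, Cx3cl1, Xcl1, Ccr, Cxcr, Cx3cr1, Xcr1 and Ackr), whatever their level. The array held probes for 57 of them, among 18316 named genes. Another 10 symbols of these families in the RefSeq table had no probe named for them and were not analysed here (Ccl16-ps, Ccl19-ps1, Ccl19-ps2, Ccl19-ps3, Ccl21b, Ccl21c, Ccl21d, Ccl26, Ccl27b and Cxcl11).

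The study hybridised liver total RNA to 8 one-colour arrays, 1 for each genotype at each of 4 times after partial hepatectomy (PHx), an operation that removes part of the liver and sets the rest to regrow. The 4 Mxcre-positive livers (at 0, 24, 36 and 48 h) carried Cre recombinase under the Mx promoter, which an interferon response switches on in liver and blood-forming cells, and the series design calls them Survivin deleted. The 4 Mxcre-negative livers (same times) lacked Cre and are called wild type. All 8 groups were of strain 129/SV/B6, and all had been irradiated, given a bone marrow transplant and then poly(IC), which provokes interferon, so the Mxcre-negative livers share these treatments. The labels do not give the sex of each liver, do not name the marrow donor's genotype, and do not say whether an array held 1 animal or a pool. Times are those of the sample titles, although the treatment protocol mentions analysis a week after surgery. Survivin itself (Birc5) was at -2.80, -3.49, -1.58 and -1.20 in Mxcre-positive liver at 0, 24, 36 and 48 h, and at -0.25, -0.55, 1.53 and 5.03 in Mxcre-negative liver. Its RNA was thus lower but still above background in all 4 Mxcre-positive livers. The 5 hepatocyte markers measured were all above background. Each level is a log2 fluorescence intensity set against the array's 75th percentile, and "above background" means well above the local background by the scanner software's own test.

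No group had a replicate. The limma tests therefore took the spread from how unequal a time change was between the genotypes, or a genotype difference between times, and p-values measure only that. Of 43379 spots per array, 60.2% to 66.0% were above background. The 0 and 24 h arrays lay on slide 1 and the 36 and 48 h arrays on slide 2, so a change at 36 or 48 h against 0 h cannot be told apart from a difference between slides. The summed signal of 4 Y-linked genes was 0.042 to 0.067 times the 75th percentile in Mxcre-positive liver at 0, 36 and 48 h and in Mxcre-negative liver at 0 h. It was 4.25 in Mxcre-positive liver at 24 h and 5.67, 2.95 and 5.82 in Mxcre-negative liver at 24, 36 and 48 h. The 24 h livers therefore differed from the 0 h livers in this signal, and so did the genotypes at 36 and 48 h. A change at 24 h against 0 h thus cannot be told apart from this difference in Y-linked signal. The same holds for a genotype difference at 36 or 48 h.

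Of the 57 members, 24 were above background on all 8 arrays, 12 on 2 to 7 arrays, 5 on 1 array and 16 on no array by their brightest probe. The CXC ligands split into 7 above background on every array (Cxcl1, Cxcl9, Cxcl10, Cxcl12, Cxcl13, Cxcl14 and Cxcl16) and 5 on none (Cxcl2, Cxcl3, Cxcl5, Cxcl15 and Cxcl17). Of 20 CC ligands, 8 were above background throughout and 4 nowhere (Ccl1, Ccl3, Ccl20 and Ccl22). Of 19 receptors, 6 were above background throughout, among them Ccr1l1, Ccr2, Cxcr2, Cxcr6 and Xcr1, and 7 on no array by the brightest probe (Ccr1, Ccr4, Ccr7, Ccr8, Cx3cr1, Cxcr1 and Cxcr5). A second Cx3cr1 probe was above background on 3 arrays. Ackr4, Ccl17 and Xcl1 were seen only in the Mxcre-negative liver at 0 h, and Ccl11 and Ccr10 only in the Mxcre-negative liver at 48 h. The 36 members above background on at least 2 arrays entered the tests, with 14141 genes in all.

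**Figure D1:**
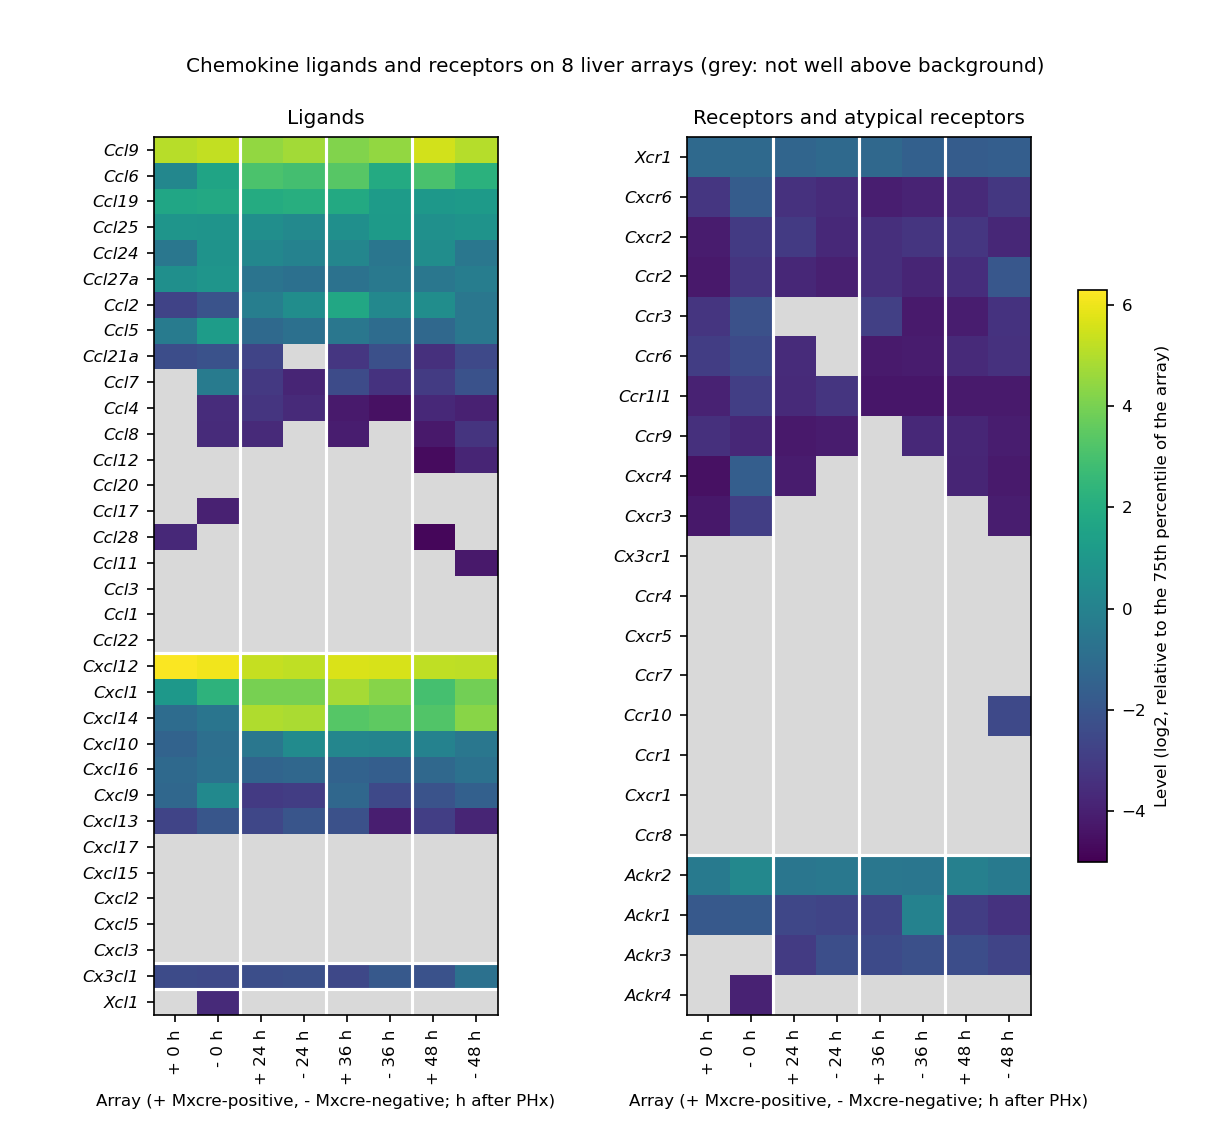
Level of all but 1 of the 57 members on each of the 8 arrays (log2, against the array's 75th percentile), with Mxcre-positive arrays marked + and Mxcre-negative arrays -, in pairs by hours after PHx. White lines separate families and times; grey cells were not well above background, which was the case on all 8 arrays for 16 members.

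Promoters of 4 CXC ligand genes that the results turn on are given here, from RefSeq on GRCm38.p6, each running from 250 bases before to 50 bases after the annotated start, 5′ to 3′ along the gene. Cxcl14 (chr13:56296502-56296801, minus strand) and Cxcl1 (chr5:90890995-90891294, plus strand) rose after PHx, Cxcl12 (chr6:117168285-117168584, plus strand) fell, and Cxcl10 (chr5:92348840-92349139, minus strand) is a classic interferon target whose genotype difference changed side. Capitals mark matches, on either strand, to GGGNNNTTC (a core of the kappa-B site), GAAANNGAA (a core of the interferon response element) and TGANTCA (the AP-1 site).
Cxcl14: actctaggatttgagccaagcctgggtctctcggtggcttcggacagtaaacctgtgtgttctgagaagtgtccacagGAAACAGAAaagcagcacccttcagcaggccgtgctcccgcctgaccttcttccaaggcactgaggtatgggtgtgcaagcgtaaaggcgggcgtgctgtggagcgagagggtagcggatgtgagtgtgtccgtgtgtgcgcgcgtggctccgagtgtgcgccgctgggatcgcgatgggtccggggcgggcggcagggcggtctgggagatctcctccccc
Cxcl1: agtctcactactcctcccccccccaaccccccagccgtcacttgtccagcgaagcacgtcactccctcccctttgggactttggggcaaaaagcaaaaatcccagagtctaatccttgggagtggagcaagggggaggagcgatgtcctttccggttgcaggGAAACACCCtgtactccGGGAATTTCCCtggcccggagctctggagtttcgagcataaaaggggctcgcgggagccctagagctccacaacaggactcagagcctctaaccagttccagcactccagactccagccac
Cxcl12: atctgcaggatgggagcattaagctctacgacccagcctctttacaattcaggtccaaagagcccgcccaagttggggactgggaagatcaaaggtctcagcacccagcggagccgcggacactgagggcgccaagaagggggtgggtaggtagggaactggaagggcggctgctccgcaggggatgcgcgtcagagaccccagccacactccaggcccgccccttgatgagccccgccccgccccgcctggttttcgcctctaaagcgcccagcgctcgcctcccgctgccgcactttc
Cxcl10: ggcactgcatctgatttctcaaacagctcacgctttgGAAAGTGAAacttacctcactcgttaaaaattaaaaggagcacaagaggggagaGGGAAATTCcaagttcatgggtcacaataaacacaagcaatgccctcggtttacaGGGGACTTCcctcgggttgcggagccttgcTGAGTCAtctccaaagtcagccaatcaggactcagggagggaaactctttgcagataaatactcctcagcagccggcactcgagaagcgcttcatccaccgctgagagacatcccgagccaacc
Cxcl14 held an interferon-response core 172 bases before its start. Cxcl1 held 3 kappa-B cores, at 88, 71 and 69 bases before its start, the last 2 overlapping on opposite strands and printed as a single run of capitals. Cxcl10 held an interferon-response core at 213, kappa-B cores at 159 and 104 and an AP-1 site at 74 bases before its start. None of the 3 motifs was found in the Cxcl12 window. RefSeq promoters were matched for 44 of the 57 members (48 promoters). The kappa-B core was in 31.2% of those and in 13.96% of all 32851 promoters of this length, the interferon-response core in 16.7% and 8.56%, and the AP-1 site in 16.7% and 7.81%. A match is a description of letters and not a bound site.

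After PHx, 8 members changed against 0 h at 1 or more times, and 4 of them (Cxcl14, Ackr3, Cxcl12 and Ccl27a) did so at 24, 36 and 48 h. Cxcl14, Cxcl1, Ccl2, Ackr3 and Ccl12 rose. Cxcl12, Ccl27a and Ccr6 fell. In the limma fit with time and genotype, 4 members rose and 2 fell at 24 h, against 4.43% of all genes called higher and 5.26% called lower. At 36 h 4 rose and 3 fell, with 7.83% and 8.64% of all genes. At 48 h 3 rose and 2 fell, with 8.13% and 9.6% of all genes. Ackr3 and Ccl12 passed the filter on low signal only through arrays taken after PHx, so the counts of rises that hold them are not read against these shares. The counts of falls, 2, 3 and 2 of 36, lie near the background. The median member changed by -0.21, -0.46 and -0.16 at 24, 36 and 48 h, beside medians of -0.03, -0.06 and -0.08 over all tested genes. The 3 comparisons share the 0 h arrays.

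**Figure D2:**
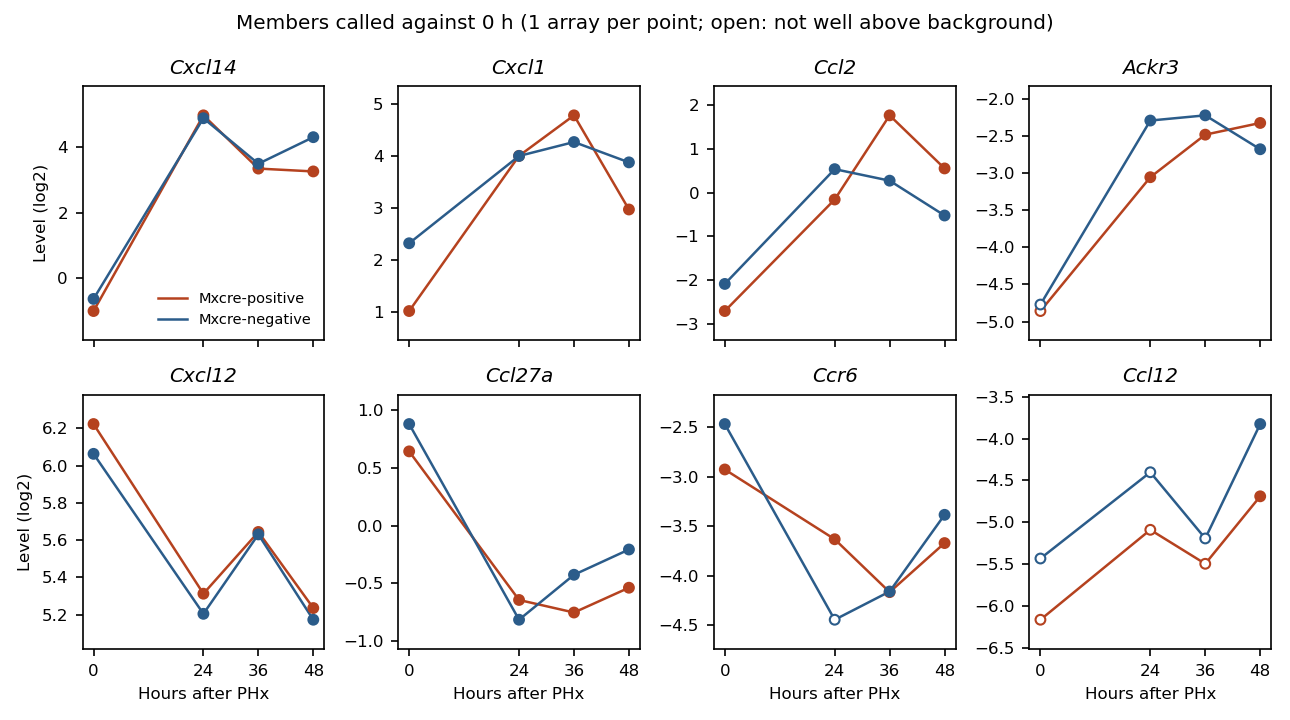
Level (log2, against the array's 75th percentile; each panel has its own scale) of the 8 members called at any time against 0 h, by hours after PHx, with 1 array per point; open points were not well above background. Cxcl14 climbed to 4.96 in Mxcre-positive and 4.87 in Mxcre-negative liver at 24 h, and the 2 genotypes ran close together for Cxcl12.

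Cxcl14, a constitutively made CXC chemokine whose receptor is still debated, showed the greatest rise among the members at each time. Its level was -0.99, 4.96, 3.34 and 3.25 in Mxcre-positive liver at 0, 24, 36 and 48 h, and -0.62, 4.87, 3.49 and 4.29 in Mxcre-negative liver. All 6 arrays after PHx lay far above both 0 h arrays in this gene. The limma estimate was 5.72 ± 0.29 (SE) at 24 h, or 52.7-fold (adjusted p = 0.0171), 4.22 or 18.6-fold at 36 h (adjusted p = 0.0139) and 4.58 or 23.9-fold at 48 h (adjusted p = 0.0044).

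Cxcl1 attracts neutrophils through Cxcr2 and is an early product of injured liver. Its level was 1.02, 3.999, 4.77 and 2.97 in Mxcre-positive liver in time order, and 2.32, 3.996, 4.26 and 3.87 in Mxcre-negative liver. Every array after PHx was above both 0 h arrays, and the 0 h arrays themselves were 1.30 apart. It rose by 2.32 ± 0.47 (5.01-fold) at 24 h (limma adjusted p = 0.0492) and by 2.85 ± 0.47 (7.19-fold) at 36 h (limma adjusted p = 0.0289). Its receptor Cxcr2 was dim, at -4.16, -3.08, -3.46 and -3.22 in Mxcre-positive liver and -3.07, -3.68, -3.27 and -3.76 in Mxcre-negative liver, and did not pass the test at any time. The related neutrophil attractants Cxcl2, Cxcl3 and Cxcl5 were not above background on any array.

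Cxcl12 holds Cxcr4-bearing leukocytes and progenitors in place, and Ackr3 is its scavenging receptor. The ligand was at 6.22, 5.31, 5.64 and 5.24 in Mxcre-positive liver and at 6.06, 5.20, 5.63 and 5.17 in Mxcre-negative liver, in time order. All arrays after PHx were below both 0 h arrays, and the genotypes differed by no more than 0.16 at any time. Cxcl12 fell by 0.88 ± 0.11 at 24 h (1.85-fold lower, limma adjusted p = 0.0244), by 0.51 ± 0.11 at 36 h (adjusted p = 0.0465) and by 0.94 ± 0.11 at 48 h (adjusted p = 0.0146). A second Cxcl12 probe was at 2.08, 0.79, 0.85 and 0.71 in Mxcre-positive liver and at 1.92, 0.55, 0.79 and 0.64 in Mxcre-negative liver, also lower on all 6 later arrays. The 36 h call was lost with quantile scaling, median scaling and the deposited values. With normexp no Cxcl12 call held, and its changes were -0.69, -0.12 and -0.36.

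Ackr3 moved the other way. It was not above background on either 0 h array and reached -3.06, -2.48 and -2.32 at 24, 36 and 48 h in Mxcre-positive liver, and -2.29, -2.22 and -2.68 in Mxcre-negative liver. Against the background level at 0 h it was at least 3.68-fold higher at 24 h (limma adjusted p = 0.0244), at least 4.597-fold higher at 36 h (adjusted p = 0.0189) and at least 4.15-fold higher at 48 h (adjusted p = 0.0145). Because Ackr3, like Ccl12, entered the tests only through arrays after PHx, on which it was high, its p-values are no independent support for the rise. The bounds set the mean of both later arrays against the lowest signal still above background at 0 h, or the gene's own signal where that was higher. That lowest signal is taken over all probes of an array, and a brighter probe can still be below background. Cx3cr1 was so at -4.27 in Mxcre-negative liver at 0 h, where the lowest signal was -4.42. All such bounds given here are therefore approximate. With normexp background correction of the raw signals the fitted change was -0.08, -0.36 and -0.61 and was not called. Cxcr4, the signalling receptor of Cxcl12, was above background on 5 arrays and was not called.

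The interferon-induced ligands of Cxcr3 did not pass the test against 0 h. Cxcl9 was at -1.23, -3.07, -1.21 and -2.12 in Mxcre-positive liver and at 0.35, -2.95, -2.50 and -1.55 in Mxcre-negative liver. Both genotypes were at their lowest at 24 h (-2.57 ± 0.67 against 0 h, limma adjusted p = 0.077). Cxcl10 was at -1.42, -0.53, 0.19 and -0.01 in Mxcre-positive liver and at -0.87, 0.44, 0.11 and -0.54 in Mxcre-negative liver, all 6 later arrays being above both 0 h arrays (limma adjusted p = 0.136 at 24 h). Cxcr3 itself was above background on both 0 h arrays and on 1 later array, that of Mxcre-negative liver at 48 h.

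Cxcl13, which draws B cells through Cxcr5, was at -2.68, -2.59, -2.21 and -2.92 in Mxcre-positive liver and at -1.98, -2.01, -4.06 and -3.85 in Mxcre-negative liver. The 2 late Mxcre-negative arrays were below the other 6. Cxcl16, a membrane-bound ligand made by macrophages and endothelium, was at -1.15, -1.34, -1.43 and -1.17 in Mxcre-positive liver and at -0.84, -1.22, -1.62 and -0.80 in Mxcre-negative liver. Its receptor Cxcr6, found on liver-resident lymphocytes, was at -3.20, -3.41, -4.03 and -3.65 in Mxcre-positive liver and at -1.70, -3.60, -3.87 and -3.16 in Mxcre-negative liver. The Mxcre-negative 0 h array stood above all others in Cxcr6.

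Among CC ligands, Ccl2, the main attractant of Ccr2-bearing monocytes, rose at 36 h. Its level was -2.71, -0.16, 1.77 and 0.56 in Mxcre-positive liver and -2.09, 0.54, 0.28 and -0.52 in Mxcre-negative liver. All 6 later arrays were above both 0 h arrays, and the peak fell at 36 h in Mxcre-positive and at 24 h in Mxcre-negative liver. The change at 36 h was 3.42 ± 0.64 (limma adjusted p = 0.0346). It was 1.36 with normexp (adjusted p = 0.292), and without the filter on low signal it was not called (adjusted p = 0.0527). At 24 h it was 2.59 ± 0.64 with an adjusted p of 0.0702. Ccl12, a further Ccr2 ligand of the mouse, was above background only on both 48 h arrays, at -4.69 in Mxcre-positive and -3.82 in Mxcre-negative liver. It was at least 1.23-fold higher at 48 h than at 0 h (limma adjusted p = 0.0133). It was also called at 24 h (limma adjusted p = 0.0335), with all 4 arrays of that comparison below background, so no fold is given. Under normexp the fitted change of Ccl12 was -0.23 at 24 h and -0.82 at 48 h, neither called.

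Ccl27a, a skin-homing ligand of Ccr10, fell at every time. It was at 0.64, -0.64, -0.75 and -0.54 in Mxcre-positive liver and at 0.88, -0.82, -0.43 and -0.21 in Mxcre-negative liver. No later array reached either 0 h array. The fall was 1.49 ± 0.17 at 24 h (2.81-fold lower, limma adjusted p = 0.0227), 1.35 ± 0.17 at 36 h (adjusted p = 0.0216) and 1.13 ± 0.17 at 48 h (adjusted p = 0.0202). With normexp the changes were -0.82, -0.78 and -0.63, and none was called (adjusted p = 0.293, 0.25 and 0.241). Ccl27b is a near-identical copy, so the probe may read both, and Ccl19 and Ccl21a have such copies too.

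The other CC ligands above background on all arrays did not pass the test against 0 h. Ccl6, a rodent chemokine of myeloid cells, was at 0.21, 3.08, 3.38 and 3.03 in Mxcre-positive liver and at 1.59, 2.92, 1.89 and 2.20 in Mxcre-negative liver, with every later array above both 0 h arrays (2.10 ± 0.69 at 24 h, limma adjusted p = 0.121). Ccl9, its close rodent relative, was at 5.09, 4.48, 4.14 and 5.51 in Mxcre-positive liver and at 5.27, 4.75, 4.49 and 5.06 in Mxcre-negative liver. Both genotypes had their lowest Ccl9 level at 36 h. Ccl5, a product of T and NK cells, was at -0.28, -1.16, -0.54 and -1.18 in Mxcre-positive liver and at 1.27, -0.81, -0.99 and -0.54 in Mxcre-negative liver. Ccl24, an attractant of eosinophils through Ccr3, was at -0.50, 0.22, 0.18 and 0.52 in Mxcre-positive liver and at 0.82, 0.01, -0.58 and -0.50 in Mxcre-negative liver. In Ccl5 and Ccl24 the Mxcre-negative 0 h array was the highest of the 8. Ccl19, a Ccr7 ligand of lymphoid tissue, was at 1.67, 1.93, 1.85 and 1.03 in Mxcre-positive liver and at 1.84, 2.09, 1.21 and 1.14 in Mxcre-negative liver. Ccl25, a Ccr9 ligand of gut and thymus, was at 0.89, 0.57, 0.61 and 0.68 in Mxcre-positive liver and at 0.86, 0.31, 1.14 and 0.79 in Mxcre-negative liver. In Ccl19 both 48 h arrays were the lowest of the 8, and in Ccl25 both 24 h arrays were.

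Dimmer CC ligands were seen on part of the arrays and were not called. Ccl7 was above background on 7 arrays, at -3.12, -2.44 and -3.02 in Mxcre-positive liver at 24, 36 and 48 h, and at -0.30, -3.82, -3.36 and -2.13 in Mxcre-negative liver at 0, 24, 36 and 48 h. Ccl4 was above it on 7 arrays too, reaching -3.24 in Mxcre-positive liver (24 h) and -3.55 in Mxcre-negative liver (0 h). Ccl8, a mouse ligand of Ccr8, was seen on 5 arrays and reached -3.66 in Mxcre-positive liver (24 h) and -3.30 in Mxcre-negative liver (48 h). Ccl21a was above background on all arrays but that of Mxcre-negative liver at 24 h, with -2.32 in Mxcre-positive and -2.15 in Mxcre-negative liver at 0 h. Ccl28, a mucosal ligand of Ccr10, was seen only in Mxcre-positive liver, at 0 h (-3.68) and 48 h (-4.78).

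Cx3cl1, the membrane-bound ligand of Cx3cr1, was at -2.44, -2.28, -2.54 and -2.15 in Mxcre-positive liver and at -2.51, -2.23, -1.84 and -0.78 in Mxcre-negative liver. The Mxcre-negative 48 h array stood above the other 7.

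Of the receptors, Ccr6, which Ccl20 engages on B and T cells, fell at 36 h by 1.46 ± 0.33 (limma adjusted p = 0.0469). It was at -2.93, -3.63, -4.16 and -3.67 in Mxcre-positive liver and at -2.47, -4.44, -4.16 and -3.38 in Mxcre-negative liver, the 24 h Mxcre-negative value being below background. Both 0 h arrays were above all later ones, and the 36 h call was lost with each other scaling tried. Ccr2, the monocyte receptor of Ccl2, was at -4.24, -3.76, -3.46 and -3.52 in Mxcre-positive liver and at -3.27, -4.01, -3.82 and -1.93 in Mxcre-negative liver. Its second probe was below background on all 8 arrays. Ccr1l1 was at -3.90, -3.65, -4.31 and -4.19 in Mxcre-positive liver and at -2.90, -3.26, -4.33 and -4.20 in Mxcre-negative liver. For Ccr1l1 the Mxcre-negative 0 h array was the highest. Ccr3 was below background on both 24 h arrays and otherwise at -3.27, -2.88 and -4.08 in Mxcre-positive liver and at -2.18, -4.17 and -3.36 in Mxcre-negative liver. Ccr9 was seen on 7 arrays, with its highest level, -3.42, in Mxcre-positive liver at 0 h. Xcr1, a marker of cross-presenting dendritic cells, was at -1.12, -1.33, -1.16 and -1.73 in Mxcre-positive liver and at -1.16, -1.14, -1.55 and -1.62 in Mxcre-negative liver. The other Xcr1 probe was below background on all 8 arrays, so its level rests on 1 probe.

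The atypical receptors other than Ackr3 did not pass the test. Ackr2, the scavenger of inflammatory CC chemokines, was at -0.35, -0.57, -0.54 and -0.07 in Mxcre-positive liver and at 0.29, -0.49, -0.58 and -0.34 in Mxcre-negative liver. Ackr1, the Duffy chemokine receptor of red cells and venules, was at -1.84, -2.61, -2.69 and -2.96 in Mxcre-positive liver and at -1.81, -2.70, -0.0024 and -3.34 in Mxcre-negative liver. The Mxcre-negative 36 h array stood far above the rest in Ackr1, but the other Ackr1 probe read -4.06 in Mxcre-positive and -3.9994 in Mxcre-negative liver at that time.

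The time calls rested on few arrays, and leaving out 1 of the compared arrays also left fewer calls among all genes. A lost call is thus not particular to the members. No estimate of a called member changed direction when an array was left out. Every call except the 3 of Cxcl14 was lost when any 1 of the 4 arrays it compared was left out. Cxcl14 kept its call at 48 h without any 1 array, and lost it at 24 and 36 h without the Mxcre-positive 0 h array or without either array of the later time. With the Y-linked signal as a covariate 0 members were called at 24 h. The estimates were then 5.25 for Cxcl14, 2.72 for Cxcl1, 2.59 for Ackr3, -0.97 for Cxcl12 and -1.74 for Ccl27a. That covariate draws mainly on the genotype differences in Y-linked signal at 36 and 48 h. These estimates therefore do not separate time from Y-linked signal at 24 h.

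Between the genotypes, limma called 0 of the 36 members and 0.0% of all genes averaged over the 4 times. At an unadjusted p under 0.05 there were 1 member (Ccl12) and 931 genes. Ccl12 was below background on both arrays at 0, 24 and 36 h, so its p rests mostly on such signal. The members leaned one way. In 26 of 36 the mean was lower in Mxcre-positive liver and in 10 it was higher, beside 44.54% of all genes higher. The median was -0.19 for the members and -0.02 for all genes. The mean over the times hides opposite differences at single times, which follow as sizes without a test.

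At 0 h most chemokine genes read lower in Mxcre-positive than in Mxcre-negative liver. Of 30 members above background on both arrays, 25 were lower, 12 of them by 2-fold or more and 0 higher by 2-fold or more, against 2.57% of all genes lower and 1.18% higher by that margin. Of all genes above background on both arrays, 48.3% read higher in Mxcre-positive liver. The median difference was -0.63 for the members and -0.01 for all genes. The widest was in Cxcr4, at -4.51 in Mxcre-positive and -1.63 in Mxcre-negative liver, though its other probe was below background on all 8 arrays. Cxcl9 (-1.58), Ccl5 (-1.54), Cxcr6 (-1.502) and Ccl6 (-1.38) followed, and Cxcr3, Ccl24, Cxcl1, Ccr3, Cxcr2 and Ccr1l1 were also among the 12. The second Ccr3 probe went the other way, at -4.47 in Mxcre-positive liver and below background in Mxcre-negative liver. The highest differences on the other side were 0.30 in Ccr9, the gut-homing receptor, 0.16 in Cxcl12 and 0.07 in Cx3cl1. Ccl7, a monocyte attractant, was below background in Mxcre-positive liver and at -0.30 in Mxcre-negative liver, at least 21.0-fold lower. Its second probe was below background in Mxcre-positive liver too, but read only -3.82 in Mxcre-negative liver. The lowest level above background on that array was -4.42. The 21.0-fold bound thus rests on 1 probe on 1 array, and the second probe does not bear out its size. Ccl8 was at least 2.11-fold lower and Xcl1 at least 2.04-fold lower in the same way.

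At 24 h 0 of 28 members above background on both arrays differed by 2-fold or more, with 0.793% of all genes higher and 1.19% lower by that margin. Of these, 15 were lower and 13 higher in Mxcre-positive liver, with a median of -0.03. The lowest were Cxcl10 (-0.97), Ackr3 (-0.76) and Ccl2 (-0.69), and the highest Ccl7 (0.70), Cxcr2 (0.60) and Ccl4 (0.42). The other Cxcr2 probe was below background in Mxcre-positive liver and at -3.95 in Mxcre-negative liver, the opposite side. Ccl21a was at -2.69 in Mxcre-positive liver and below background in Mxcre-negative liver, at least 2.69-fold higher.

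At 36 h 5 of 30 members were higher in Mxcre-positive liver by 2-fold or more and 1 lower, against 2.24% and 2.32% of all genes. The higher ones were Cxcl13 (1.85), Ccl2 (1.49), Ccl6 (1.49), Cxcl9 (1.29) and Ccr3 (1.28), the eosinophil receptor, whose second probe was below background in Mxcre-positive liver and at -3.35 in Mxcre-negative liver, the opposite side. The lower one was Ackr1 (-2.69, by 1 of its 2 probes), with Ccl21a (-0.98), a lymph node ligand of Ccr7, and Cx3cl1 (-0.70) next. The median was 0.06 for the members and -0.02 for all genes.

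At 48 h 2 of 34 members were higher in Mxcre-positive liver by 2-fold or more, Ccl2 (1.08) and Ccl24 (1.02), and 3 were lower, Ccr2 (-1.59), Cx3cl1 (-1.37) and Cxcl14 (-1.04), against 2.5% and 3.16% of all genes. Cxcl13 (0.93) was the next higher. The Mxcre-positive liver at 48 h thus read higher than the Mxcre-negative one in the monocyte ligand Ccl2 and lower in its receptor Ccr2. The Ccr2 difference rests on 1 probe, as its second probe was below background on all 8 arrays. By that 1 probe the Mxcre-negative 48 h array stood above all others. Ccr10 was below background in Mxcre-positive liver and at -2.49 in Mxcre-negative liver, at least 5.10-fold lower.

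**Figure D3:**
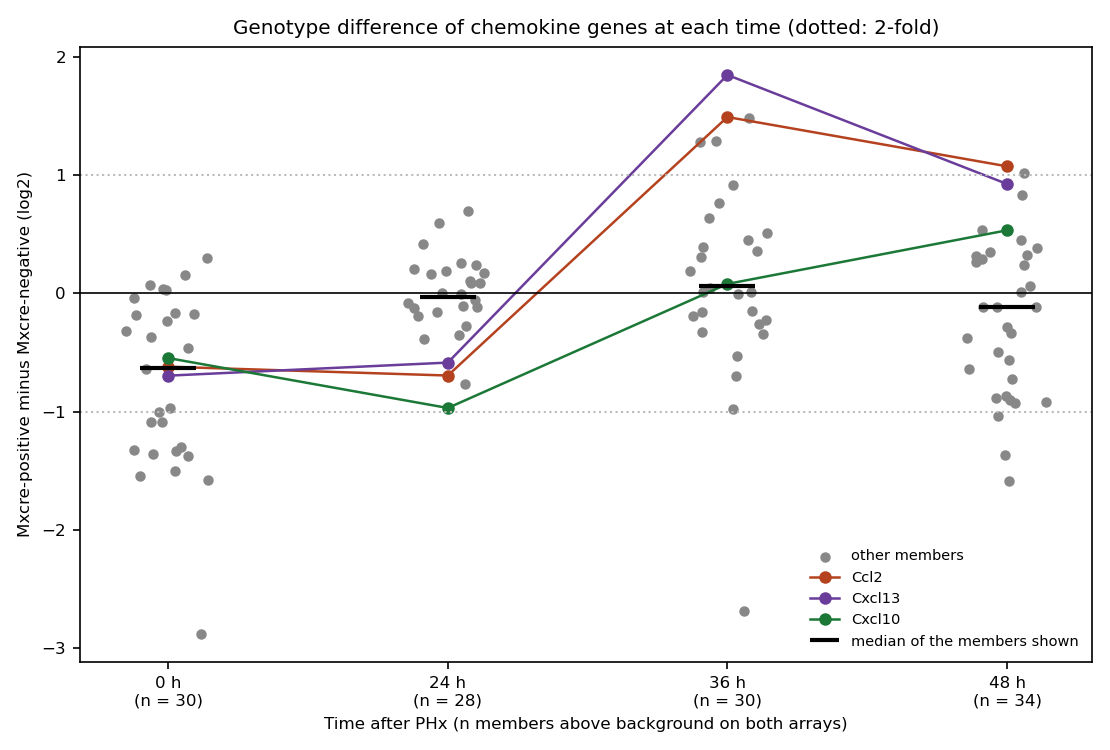
Difference between Mxcre-positive and Mxcre-negative liver (log2) for each member above background on both arrays of a time, with 1 pair of arrays per time; black bars are medians over those members and dotted lines mark 2-fold. At 0 h 25 of 30 members lie below 0, and Ccl2, Cxcl13 and Cxcl10 lie below 0 at 0 and 24 h and above it at 36 and 48 h.

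The genotype difference was then compared between late (36 and 48 h) and early (0 and 24 h) pairs. It was higher late than early in 25 of 36 members, beside 46.14% of all genes. The median shift was 0.42 for the members and -0.03 for all genes, and limma called 0 members and 0.0% of genes. At an unadjusted p under 0.05 there were 4 members (Ccl2, Cxcl13, Cxcl10 and Cx3cl1) and 1196 genes. Ccl2 had the smallest p, with a shift of 1.94 ± 0.22 (adjusted p = 0.492). Of the 24 members above background on all 8 arrays, 6 had a difference of one sign in both early pairs and of the other in both late pairs, against 16.8% of all such genes. Early and late coincide with the slides, and the late pairs differ in Y-linked signal, so the shift cannot be told apart from either. Between 48 and 36 h limma called 0 members (4 at an unadjusted p under 0.05) and 0.106% of all genes.

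Most markers of neutrophils, macrophages, monocytes and lymphocytes also read lower in Mxcre-positive liver at 0 h, whereas most dendritic cell markers read higher. At 24 h the measurable neutrophil and macrophage markers were all lower, while the members had a median of -0.03. At 36 h neutrophil, macrophage and monocyte markers were mostly higher, beside a member median of 0.06. At 48 h those markers were again mostly higher, but T, NK and B cell markers were mostly lower and the member median was -0.11. The 10 neutrophil markers summed to 8.61, 27.9, 65.6 and 82.2 times the 75th percentile in Mxcre-positive liver at 0, 24, 36 and 48 h, and to 64.4, 52.9, 30.2 and 24.2 in Mxcre-negative liver. At 0 h 9 of 9 measurable markers read lower in Mxcre-positive liver (median -2.82) and at 24 h 8 of 8 (-0.87), whereas 8 of 10 were higher at 36 h (1.21) and 9 of 10 at 48 h (1.36). The sum is carried mostly by S100a9, at 2.64, 4.41, 5.64 and 5.98 in Mxcre-positive liver and at 5.63, 5.32, 4.55 and 4.20 in Mxcre-negative liver. The 11 macrophage markers, all above background on all 8 arrays, summed to 42.3, 35.9, 57.0 and 60.5 in Mxcre-positive liver and to 75.2, 60.8, 34.4 and 54.8 in Mxcre-negative liver. They were lower in 11 of 11 at 0 and 24 h, and higher in 11 of 11 at 36 h and in 9 of 11 at 48 h. Of the T and NK cell markers, 9 of 11 were lower at 0 h (median -1.001). Of 12 tested, 5, 7 and 5 were called lower at 24, 36 and 48 h than at 0 h. Of all genes, 5.26%, 8.64% and 9.6% were called lower at these times. Gzma, Gzmb and Cd3g were among the markers called. Gzma and Cd3g passed the filter on low signal only through the 0 h arrays, on which they were high. Their calls are thus no independent support for a fall, and the counts holding them are not read against these shares. The 13 T and NK genes summed to 5.92 to 8.04 in Mxcre-positive liver and to 6.04 to 10.6 in Mxcre-negative liver, with Ncr1 above background on no array. Of 4 B cell genes tested, 3 were called lower at 36 h and 2 at 48 h than at 0 h, and Pax5 and Blk were above background on no array. The 5 monocyte markers summed to 42.3, 11.9, 19.7 and 24.3 in Mxcre-positive liver and to 28.5, 14.6, 14.3 and 15.8 in Mxcre-negative liver. Their sum was thus higher in Mxcre-positive liver at 0 h, but it is carried mostly by Ly6c2, at 5.32 against 4.62 in Mxcre-negative liver. Marker by marker, 3 of 4 measurable ones were below the Mxcre-negative level at 0 h (median difference -0.32). At 24 h 3 of 5 were below it (-0.02). At 36 h 5 of 5 were above it (0.90), and at 48 h 4 of 5 (0.74). The 4 dendritic cell markers summed to 0.254 to 0.561 in Mxcre-positive and 0.287 to 0.406 in Mxcre-negative liver, with 2 of 3 measurable ones higher at 0 h (median 0.71) and 3 of 3 lower at 36 h (median -0.36). In whole-liver RNA fewer cells of a type and less RNA per cell cannot be told apart. The part of these cells in the chemokine differences was not tested.

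**Figure D4:**
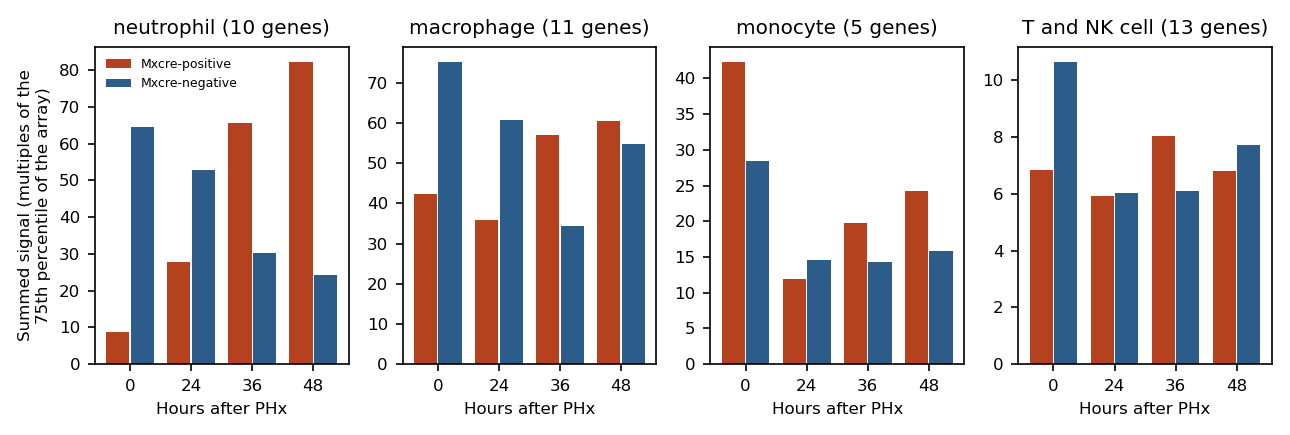
Summed signal of 4 marker lists on each array (multiples of its 75th percentile), by hours after PHx, 1 array per bar. The neutrophil sum was 8.61 in Mxcre-positive and 64.4 in Mxcre-negative liver at 0 h, and 82.2 in Mxcre-positive and 24.2 in Mxcre-negative liver at 48 h.

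Of the cytokines that induce chemokines, 9 of the 20 measured were above background on no array (Tnf, Ifng, Il17a, Csf2, Csf3, Il4, Il10, Lta and Osm). Of the 10 tested, Il18, which drives interferon-gamma from lymphocytes, fell at each time (by 1.43 ± 0.16 at 24 h, limma adjusted p = 0.0227). Il13 fell at 36 h by 0.80, and Il33, an alarm cytokine of stellate and endothelial cells, rose at 48 h by 1.69 ± 0.24 (limma adjusted p = 0.0189). In the NF-kB pathway, which drives Cxcl1, Ccl2 and other chemokine genes, 2 of 15 tested genes rose at 24 h, 2 at 36 h and 1 at 48 h. None was called lower. Of all genes, 4.43%, 7.83% and 8.13% were called higher and 5.26%, 8.64% and 9.6% lower at 24, 36 and 48 h. Relb, a subunit of the noncanonical pathway, rose by 2.08 ± 0.25 at 24 h (limma adjusted p = 0.0239), 1.66 at 36 h and 1.21 at 48 h. Nfkb2 rose by 1.03 at 24 h and Nfkbiz by 1.198 at 36 h. The pathway's median change was 0.35, 0.11 and 0.22 at 24, 36 and 48 h.

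Among 24 interferon-stimulated genes, 3 were called lower at 24 h (Oas2, Gbp3 and Bst2), beside 5.26% of all genes, and none was called at 36 h. At 48 h Oasl1 was higher and Gbp3 lower, beside 8.13% and 9.6% of all genes. Between genotypes 21 of 24 read lower in Mxcre-positive liver at 0 h, with a median of -0.42, and 20 of 24 read higher at 36 h, with a median of 0.53. Of all genes above background on both arrays, 48.3% read higher at 0 h and 47.59% at 36 h. At 24 h 17 of 23 read lower (median -0.13) and at 48 h 13 of 24 (-0.065), while 52.25% and 46.76% of all genes read higher. The interferon-induced Cxcl9 also lay lower at 0 h and higher at 36 h, but lower again at 48 h (-0.56). Cxcl10 was lower at 0 h (-0.55) and differed by only 0.08 at 36 h. Of 25 tested genes of receptor signalling, Gnb1, a G protein beta subunit, rose by 0.69 ± 0.12, 0.72 and 0.85 at 24, 36 and 48 h. Over all genes, 4.43%, 7.83% and 8.13% were called higher at these times. Gnai2, the inhibitory alpha subunit that chemokine receptors use, rose by 0.57 ± 0.12 at 48 h (limma adjusted p = 0.0412).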

How the data were processed

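Total RNA of 8 mouse livers was labelled with Cy3 and hybridised to 1 one-colour Agilent array each. The processed signal is, per the file headers, a fluorescence intensity that Feature Extraction 10.7.3.1 (10.7 per the submitters' processing notes) corrected for background. The deposited matrix holds log2 values, whose scaling is not stated; all columns had a median of 5.51 and matched their own array (r of at least 0.9994 across probes, at most 0.9839 with another array), and it served as an alternative.

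Here, log2 of the processed signal minus the array's 75th percentile was used. Control and outlier-marked spots were dropped, which left 41056 of 41174 probes. RefSeq accessions named 26839 probes and 18316 genes, and the brightest probe stood for a gene. Genes above background on at least 2 arrays were tested with limma 3.58.1 (R 4.3.3, lmFit and eBayes, Benjamini-Hochberg adjusted p of 0.05 over 14141 genes). The additive model of time and genotype had 3 residual degrees of freedom and the late-against-early model 2. The scripts were checked on simulated data. The number of arrays limits the precision.

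Values on every array are given for members called in any comparison or above background on all 8 arrays, and for the 3 members in each direction with the widest genotype difference at a time; of other lists, up to 5 called genes. The members and lists were chosen with earlier results of these data known. Alternatives were normexp (offset 50), quantile and median scaling, the deposited values, other filters and probes, a Y-linked covariate, single slides and leaving out arrays or times. The files hold no mean signal, so normexp used the median signal and its background. A few items are not reported here by name. Marker lists were tested only gene by gene. Probe and gene names follow RefSeq on GRCm38.p6, which is also the build of the promoters.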

Additional observations from a re-analysis of the deposited data

Results flagged for a closer look

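The genotype difference of 6 members lay on one side in both early pairs of arrays (0 and 24 h) and on the other in both late pairs (36 and 48 h), with 1 array per genotype and time. For 5 of them Mxcre-positive liver was lower early and higher late, but the late differences were only 0.014 and 0.012 in Ccr1l1, 0.044 at 36 h in Ackr2 and 0.081 at 36 h in Cxcl10. The shift, late minus early on the log2 scale, was 2.03 for Cxcl13 (limma adjusted p = 0.575), 1.94 for Ccl2 (adjusted p = 0.492), 1.07 for Cxcl10 (adjusted p = 0.575), 0.71 for Ccr1l1 (adjusted p = 0.594) and 0.52 for Ackr2 (adjusted p = 0.638). Ccl25 went the opposite way, with a shift of -0.47 (limma adjusted p = 0.631), and with the mean of its 2 probes it no longer changed side (-0.20). None of these shifts passed the test over all genes. The same change of side was seen in 2042 of 12125 genes above background on all 8 arrays. It runs with the slides, the Y-linked signal and the neutrophil and macrophage markers, and the part of each was not tested.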

How the results depend on the processing

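Against 0 h, 6, 7 and 5 members were called at 24, 36 and 48 h. With normexp background correction 1, 2 and 1 were called (28, 24 and 83 of all genes, against 1370, 2329 and 2507), and the changes of Ackr3 (-0.0817, -0.362 and -0.6115) and of Ccl12 (-0.2329 at 24 h and -0.8243 at 48 h) reversed; the cause was not tested. With the Y-linked covariate 0 members and 1 gene were called at 24 h, and 1033 and 1195 genes at 36 and 48 h. Slide 1 alone gave 0 members and 0 genes at 24 h, with fewer arrays in the fit. Without the filter on dim genes 580, 990 and 1573 genes were called. Leaving out 1 array lowered the number of genes called at 24, 36 and 48 h. Fewer members were called at 24 and 36 h, and at 48 h where a compared array was left out. Where it left 1 array at a time, that array was assumed to vary like the others, so the estimates are given. That of Cxcl14 at 24 h stayed between 5.42 and 6.02. At 36 h 4 members were called higher and 3 lower, but 4 and 1 with quantile scaling, median scaling or the deposited values. Median scaling moved the median of all genes by 0.18 at 36 h and 0.15 at 48 h, and the share of higher calls among all genes to 58.7%, 72.5% and 65.3% at 24, 36 and 48 h, against 45.7%, 47.5% and 45.8%. Over the other alternatives than leaving out arrays, the 18 calls of single members kept call and direction in 104 of 144 recomputations, lost the call in 35 and reversed in 5. Genotype and the late-against-early difference gave 0 members under each alternative run. No paired analysis was possible because the groups share only replicate number 1; the genotype fit already holds time as a term. Signal near background limits Ackr3, Ccl12 and most receptors.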

Other observations

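Of 7 genes listed as chemokines and receptors outside the symbol families, only Rarres2, which encodes chemerin, was called. It was 0.70 ± 0.16 lower at 36 h than at 0 h (limma adjusted p = 0.0465), beside 8.64% of all genes called lower at that time. Pf4, a platelet CXC chemokine, was at -0.60, 1.74, 2.60 and 1.99 in Mxcre-positive liver at 0, 24, 36 and 48 h and at 0.30, 1.90, 0.46 and 0.50 in Mxcre-negative liver. Pf4 therefore lay lower in Mxcre-positive liver at 0 and 24 h and higher at 36 and 48 h.

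Of 18 leukocyte adhesion genes tested, 2 were called higher and 1 lower at 36 h, and 3 higher and 1 lower at 48 h, beside 7.83% and 8.64% of all genes at 36 h and 8.13% and 9.6% at 48 h. Icam2, an endothelial ligand of the integrin LFA-1, rose by 0.91 ± 0.19 at 36 h and 1.15 at 48 h (limma adjusted p = 0.0402 and 0.0233), and the junction protein F11r by 0.95 and 0.76. Madcam1, the gut-homing addressin, fell by 0.56 at 36 h and 0.79 at 48 h. Cd99 rose by 1.21 ± 0.28 at 48 h (limma adjusted p = 0.0481). Of 8 tested proteases that cleave chemokines, Dpp4, which trims Cxcl12 and Cxcl10, was called lower at 24 h (-0.73 ± 0.13, limma adjusted p = 0.0393). Of all genes, 5.26% were called lower at that time.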
